A study of Mus musculus with 12 samples.

Results

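The genes described here are 8 glycosyltransferase genes of ISCs, namely the fucosyltransferases Fut2, Fut4 and Fut8, the sialyltransferases St3gal1, St3gal4, St3gal6 and St6gal1, and the galactosyltransferase B4galt1. They were chosen by symbol, with earlier results of these data known, and each symbol stood on a single row of the count table, giving 8 of 47729 genes. Their fold changes are therefore a description, and the p-values beside them do not count as independent evidence. By flow cytometry, ISCs were isolated as the brightest Lgr5-EGFP cells (Lgr5-EGFPhi) among live small intestinal cells positive for the epithelial marker EpCAM and negative for CD24 and for blood and endothelial markers. All mice carried Lgr5-EGFP-IRES-creERT2, a knock-in that places EGFP under control of the stem cell gene Lgr5, and were 8 to 10 weeks old and of both sexes, with no sex given for single libraries. Bulk RNA-seq gave 12 libraries in 4 groups of 3. The Ctrl mice were not restrained but went without food and water over the same hours, and the stress mice were restrained for 3 h. The vehicle mice were injected intraperitoneally with 20% sulfobutylether-β-cyclodextrin, and the CORT mice received corticosterone at 5 mg/kg by the same route. For the sorted cells the paper states a single exposure, over 1 day, to restraint or to corticosterone. The stress libraries are however titled CRS, its name for chronic restraint at 3 h a day for 3 weeks. The stress libraries bear the numbers 1+2, 3 and 4+5+6, read here as pools of mice where numbers are joined, so that the p-values measure the spread between these libraries and not between single mice.

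Most proteins and lipids on the surface of the gut epithelium carry chains of sugars that are built stepwise in the Golgi apparatus. Galactosyltransferases lengthen the chain, and fucosyltransferases and sialyltransferases then add fucose or sialic acid, which often end it and decide which lectins and microbes can bind. In the intestine these terminal sugars are known for blood group and Lewis antigens and for feeding and anchoring commensal bacteria. The genes below differ in the linkage they make or in the kind of chain they act on. RNA levels alone were measured here, and no glycan or enzyme activity.

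The libraries held 16152289 to 16943362 counts in Ctrl, 15934907 to 17135770 in stress, 16465961 to 31280267 in vehicle and 29426183 to 69533214 in CORT. Stem cell markers (6 genes including Lgr5 and Olfm4) summed to 10620 to 13850 CPM (counts scaled to library size) in every library, against 127 to 1674 CPM for 6 enterocyte markers. The enterocyte sum was highest in the stress libraries. It came to 320, 823 and 1674 CPM in stress 3, stress 1+2 and stress 4+5+6, against 178 to 201 CPM in Ctrl. Of the 6 enterocyte markers, 5 were higher in stress than in Ctrl at an adjusted p below 0.05 (median log2 fold change of the 6 markers 3.20), as were 2 of 6 goblet markers and 1 of 6 Paneth markers, while 1 of 6 stem cell markers was lower (Ascl2, log2 fold change -1.23, adjusted p = 0.000336). Between CORT and vehicle, 1 enterocyte marker and 1 stromal and endothelial marker (Pecam1, log2 fold change 2.12, adjusted p = 0.0427) were higher, and 4 Paneth, 3 stem cell and 1 tuft marker were lower. All 6 stromal and endothelial markers together summed to only 1.85 to 4.04 CPM in CORT and 0.752 to 1.71 CPM in vehicle. Between vehicle and Ctrl, 1 enterocyte marker (Fabp1, log2 fold change 1.915, adjusted p = 0.018) and 1 Paneth marker (Mmp7, 2.04, adjusted p = 0.000183) were higher in vehicle (edgeR). A decrease from vehicle to CORT in such a marker need therefore not be a decrease from Ctrl, and CORT was not tested against Ctrl. The other Paneth markers lower in CORT, Defa17, Defa24 and Itln1, were not called in vehicle vs. Ctrl (log2 fold changes -0.18, -0.29 and -0.58). The marker values are set beside the genes they moved with.

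Per length of transcript (FPKM), the 8 genes differed widely in Ctrl ISCs. Fut8 was highest at 24.55 ± 1.16 (SD, n = 3), followed by St3gal6 at 16.35 ± 1.05 and B4galt1 at 15.7 ± 0.947, whose ranges overlapped each other. Fut4 at 8.50 ± 1.06 and St3gal4 at 8.25 ± 0.730 likewise overlapped. St3gal1 (1.21 ± 0.361), St6gal1 (0.609 ± 0.128) and Fut2 (0.173 ± 0.0710) formed the low end, each below the range of the one before. This order held for Fut8 and the 3 low genes in vehicle and CORT, although St3gal1, St6gal1 and Fut2 overlapped in vehicle. Fut4 and St3gal4 changed places. In CORT, Fut4 stood next after Fut8 at 22.5 ± 1.92 FPKM, with St3gal4 at 4.21 ± 1.15, and in stress St3gal4 had the highest mean at 44.5 ± 34.3 FPKM, with a spread that overlapped Fut8 at 30.6 ± 2.08.

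**Figure D1:**
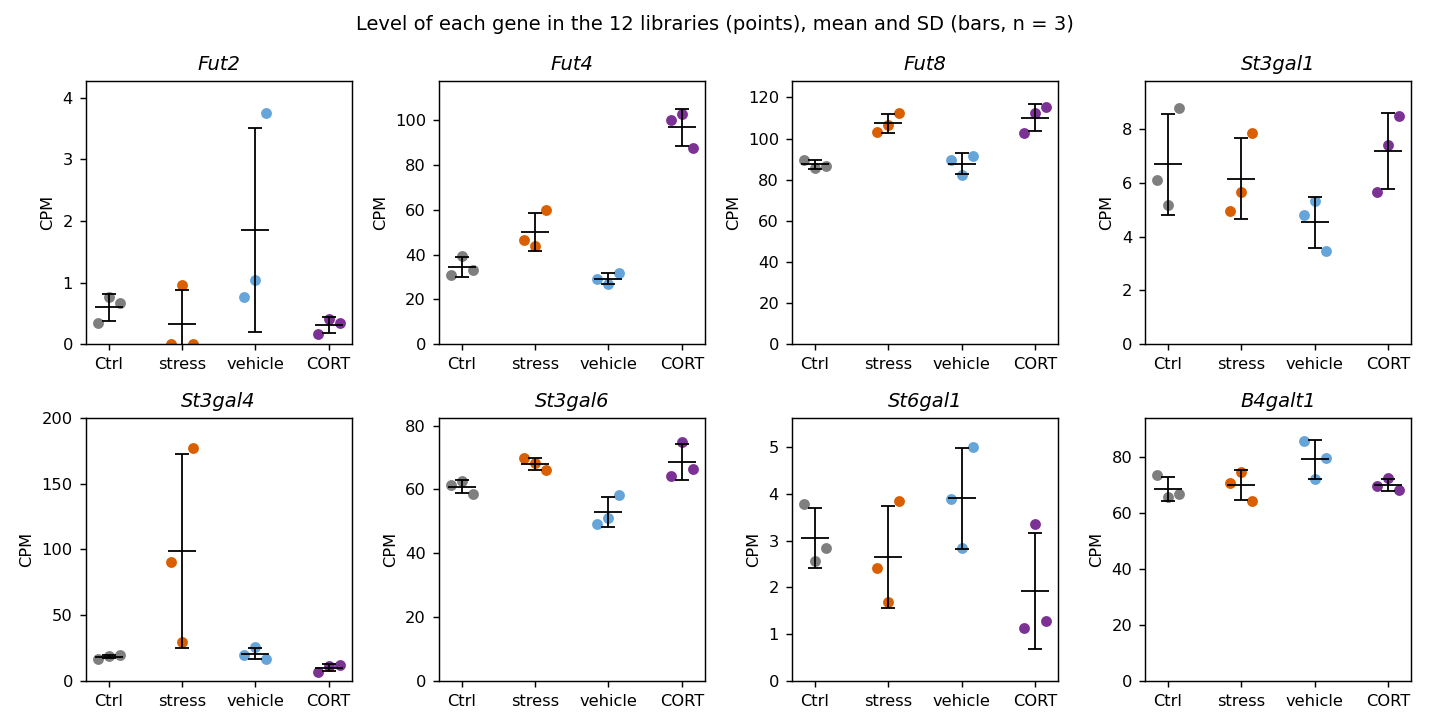
CPM of each of the 8 genes (vertical axis, linear and starting at 0, a separate scale per gene) in the Ctrl, stress, vehicle and CORT libraries. Points are libraries, in the order of their numbers, and the bars give mean and SD (n = 3). The CORT libraries sit between 87.6 and 102.8 CPM for Fut4, above all other groups, and the stress libraries are spread from 29.6 to 176.7 CPM for St3gal4.

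In CORT vs. vehicle, 3 of the 8 genes rose (Fut4, Fut8 and St3gal6) and 1 fell (St3gal4) at an adjusted p below 0.05 (edgeR quasi-likelihood test). Over all 14656 genes tested, 3.64% were higher and 4.5% lower by this rule. Only Fut4 and St3gal4 also changed more than 2-fold, as did 1.87% of all genes. The CORT libraries did not overlap the vehicle libraries for 6 of the 8 genes, 4 of them higher (Fut4, Fut8, St3gal1 and St3gal6) and 2 lower (Fut2 and St3gal4), as for 15.7% and 13% of all genes. The median log2 fold change of the 8 genes was 0.05, beside 0.01 over all genes. In stress vs. Ctrl, St3gal4 alone of the 8 passed, beside 1.3% higher and 0.59% lower over all 13722 genes tested, and the groups did not overlap for 4 genes, all higher (Fut4, Fut8, St3gal4 and St3gal6), as for 10.1% of all genes. The median was 0.10 for the 8 genes and 0.00 for all genes. The choice of the genes used these contrasts, so nothing is read from these shares.

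**Figure D2:**
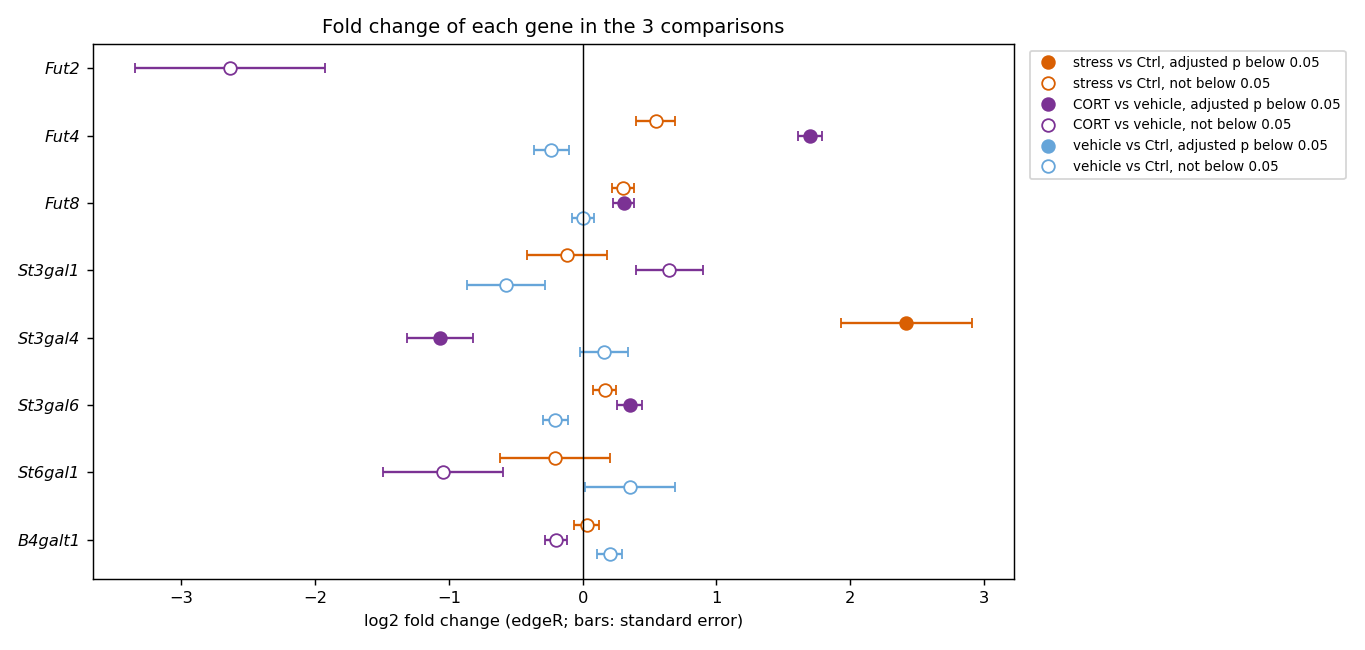
The log2 fold change of each gene (horizontal axis) in stress vs. Ctrl, CORT vs. vehicle and vehicle vs. Ctrl, from edgeR, with its standard error as a bar. Filled points have an adjusted p below 0.05, open points do not, and Fut2 has no point in either comparison with Ctrl, where it averaged below the counting limit. Fut4 lies at 1.70 in CORT, and St3gal4 lies at 2.42 in stress and -1.06 in CORT.

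Fut4, which adds fucose to N-acetylglucosamine within lactosamine chains and makes the Lewis x epitope (CD15), rose most clearly. It was at 29.2, 26.9 and 31.9 CPM in vehicle 3, 5 and 6 and at 100.02, 102.8 and 87.6 CPM in CORT 2, 4 and 5. Every CORT library was thus well above every vehicle library, and the CORT values lay close together. The increase was 3.25-fold (log2 fold change 1.70, standard error 0.09, adjusted p = 4.04e-05), the fifth smallest p-value of all genes tested. The CORT libraries were on average deeper than the vehicle libraries, and the part of depth was not tested. Leaving out each of the 6 libraries in turn gave log2 fold changes between 1.65 and 1.76. In bulk RNA, more cells with the transcript and more transcript per cell cannot be told apart. Paneth markers summed to 105 to 118 CPM in CORT and 185 to 213 CPM in vehicle, beside 135 to 172.5 CPM in Ctrl. Their part in the rise of Fut4 and in the other CORT values was not tested.

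After restraint Fut4 was at 46.65, 43.95 and 59.96 CPM in stress 1+2, 3 and 4+5+6, against 30.9, 39.6 and 33.0 CPM in Ctrl 1, 2 and 3. The stress libraries were all above the Ctrl libraries, by a smaller margin than under CORT. The log2 fold change was 0.55 (standard error 0.15). It did not pass in the main test (adjusted p = 0.103), but did with DESeq2 (adjusted p = 0.0330), with all 12 libraries in 1 edgeR fit (adjusted p = 0.0348) and without stress 3 (adjusted p = 0.0345). The response to stress was smaller than the response to CORT by 1.16 on the log2 scale when the difference itself was tested over the 12 libraries (standard error 0.18, edgeR adjusted p = 0.0153), as one of 0.388% of genes past that test. Without Ctrl 2, stress 1+2 or CORT 4, this adjusted p was 0.0521, 0.0513 or 0.0562.

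Fut4 (chromosome 9, 14748459 to 14752122, minus strand, mm10) consists of a single exon, and no annotated gene overlaps it, so that its count does not depend on how reads were shared between genes. Its promoter is shown because Fut4 had the largest increase of the 8 genes under a steroid whose receptor binds DNA at the letters TGTTCT or, on the other strand, AGAACA. RefSeq (GRCm38.p6) gives 250 bases before to 50 bases after the start site, at chr9:14752073-14752372 on the minus strand, with the match in capitals.
Fut4 promoter: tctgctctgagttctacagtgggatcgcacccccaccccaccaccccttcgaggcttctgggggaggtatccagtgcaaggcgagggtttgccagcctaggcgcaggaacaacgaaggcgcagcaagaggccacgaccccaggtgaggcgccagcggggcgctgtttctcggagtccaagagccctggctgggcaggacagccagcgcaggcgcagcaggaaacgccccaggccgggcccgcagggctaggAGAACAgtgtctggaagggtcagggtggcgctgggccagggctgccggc
The match begins at the base after this start site. The GENCODE M21 annotation places the start of Fut4 further upstream, at 14752393, so that the whole window lies within its exon. Such a match stood in 19.0% of all 32851 promoters of this length, and the paired form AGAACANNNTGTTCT in 0.00913% of them and in none of the 12 promoters listed for 6 of the 8 genes. GC content was 68.0%, beside a median of 52.7% over all promoters. A match to letters is no evidence of binding, and the same motif occurred in 3 of the 12 promoters (Fut4 and 2 of Fut8).

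The genes nearest to Fut4 in pattern over the 12 libraries, by root mean square difference in log2 CPM after centring each gene on its mean, were Clic4 (0.18), Otud1 (0.25) and Glul (0.25) among 14415 genes, where the spread of Fut4 itself was 0.67. Clic4, an intracellular chloride channel protein, was at 80.2 ± 6.73 CPM in vehicle and 238 ± 17.0 CPM in CORT (SD, n = 3). Glul, glutamine synthetase, was at 157.5 ± 9.04 and 686.5 ± 151 CPM in the same groups. Like Fut4, both were highest in the CORT libraries and above Ctrl in the stress libraries, at 111.5 ± 9.88 and 312 ± 11.2 CPM. This likeness follows from choosing them by nearness over the same libraries.

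Fut8 (chromosome 12, 77238104 to 77476338, plus strand), which attaches fucose to the innermost sugar of N-linked chains (core fucose), was the highest of the 8 genes in Ctrl and moved by a small amount. It was at 89.6, 82.0 and 91.7 CPM in vehicle 3, 5 and 6 and at 103, 113 and 115 CPM in CORT 2, 4 and 5. All CORT libraries were higher than all vehicle libraries. It rose 1.24-fold (log2 fold change 0.31, standard error 0.08, adjusted p = 0.0481), and this call was lost on leaving out any of the 6 libraries (adjusted p 0.0541 to 0.167). In stress it was at 103, 107 and 112 CPM against 85.7 to 89.8 CPM in Ctrl, again with no overlap, and a log2 fold change of 0.30 (standard error 0.08, adjusted p = 0.105) that passed with all 12 libraries in 1 fit (adjusted p = 0.0401). The difference between both responses was -0.01 (standard error 0.10). Fut8 shares exon bases with 9530018F02Rik on the opposite strand, which was not analysed here.

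Fut2 (chromosome 7, 45648595 to 45666308, minus strand), which makes the H blood group antigen on the gut surface, was close to the counting limit. A count is 75 covered bases, so a read pair can add up to 4 counts, and 0 counts leave room for 12 counts in a library. Fut2 had 6, 13 and 11 counts in Ctrl, 0, 16 and 0 in stress, 13, 18 and 115 in vehicle and 11, 24 and 10 in CORT, so both Ctrl and stress averaged at or below that limit and no fold is given between them. In vehicle and CORT the levels were 0.768, 1.04 and 3.75 CPM and 0.167, 0.412 and 0.346 CPM. The groups did not overlap, and vehicle 6 stood far above the other vehicle libraries. CORT 2 and CORT 5, at 11 and 10 counts, were also below the limit of 12 counts, so the size of the fold is uncertain. The log2 fold change in CORT vs. vehicle was -2.64 (standard error 0.71, adjusted p = 0.0530), and passed with DESeq2 (adjusted p = 0.00347), without a filter on low counts (0.0453), with at least 10 counts in every library (0.0284) and without vehicle 3 (0.0372). Without vehicle 6 it was -1.58.

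St3gal4, which caps lactosamine chains with sialic acid and takes part in making sialyl Lewis x, moved in opposite directions under the treatments. It was at 17.0, 18.7 and 19.8 CPM in Ctrl 1, 2 and 3 and at 90.0, 29.6 and 176.7 CPM in stress 1+2, 3 and 4+5+6. Each stress library was above all Ctrl libraries, but by very different amounts. The rise was 5.35-fold (log2 fold change 2.42, standard error 0.49, adjusted p = 0.0372). It passed without stress 3 (log2 fold change 2.85, adjusted p = 8.82e-05) and not without any other of the 6 libraries (Ctrl 1, 2 or 3, or stress 1+2 or 4+5+6), where the adjusted p was 0.0726 to 0.191. Without stress 4+5+6 the log2 fold change was 1.70.

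The enterocyte markers varied across the same libraries in the same order. Relative to the Ctrl mean, St3gal4 was 1.60-fold in stress 3, 4.86-fold in stress 1+2 and 9.55-fold in stress 4+5+6. The summed enterocyte markers were 1.69-fold, 4.345-fold and 8.83-fold in the same libraries. The single markers changed by unlike amounts, and the sum is weighted to Fabp2, the highest of them in Ctrl. Fabp2 was at 92.9, 173 and 307 CPM in that order, against 93.7 to 125.5 CPM in Ctrl. Alpi was at 20.2, 63.6 and 143.5 CPM, against 4.19 to 9.15 CPM in Ctrl. Goblet markers summed to 502, 932.5 and 1448 CPM in that order, against 488 to 610 CPM in Ctrl. Stem cell markers in stress 4+5+6 summed to 11240 CPM, within the Ctrl range of 10630 to 12020 CPM. Those in stress 3 and 1+2 summed to 13850 and 13470 CPM, above it. The median of the 6 stem cell markers went the other way, at 518, 521 and 490.5 CPM in stress 3, 1+2 and 4+5+6. In Ctrl this median was 548 to 604 CPM. Of the 6 stem cell markers, 4 had negative and 2 positive log2 fold changes in stress vs. Ctrl. No enterocyte marker was at 0 in all libraries of any group, and the part of these cells in the rise of St3gal4 was not tested. Fut4 in the same libraries was 1.28-fold, 1.35-fold and 1.74-fold of the Ctrl mean.

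**Figure D3:**
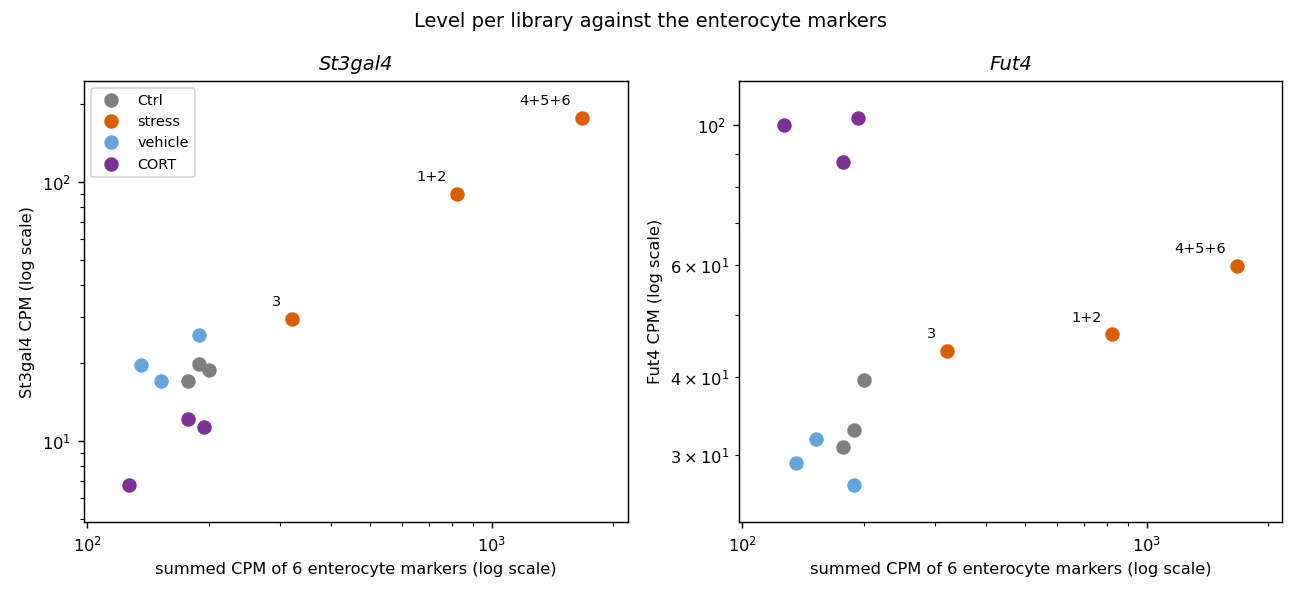
CPM of St3gal4 (left) and Fut4 (right) in each library, on a log scale, against the summed CPM of 6 enterocyte markers, also on a log scale. Each point is a library, coloured by group, with the stress libraries named. St3gal4 and the markers are both lowest in stress 3 and highest in stress 4+5+6, and the CORT libraries lie lower for St3gal4 and higher for Fut4 at marker sums of 127 to 194 CPM.

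Under CORT, St3gal4 was at 6.74, 11.3 and 12.2 CPM in CORT 2, 4 and 5, against 19.6, 25.7 and 17.0 CPM in vehicle 3, 5 and 6. All CORT libraries were below all vehicle libraries. It fell 2.09-fold (log2 fold change -1.06, standard error 0.25, adjusted p = 0.0304). The summed enterocyte markers overlapped between these groups (127 to 194 CPM in CORT and 136 to 189 CPM in vehicle), but Fabp1 and Fabp2 among them did not. Fabp1 was at 9.98, 19.7 and 15.8 CPM in CORT and 20.6, 56.8 and 30.1 CPM in vehicle (log2 fold change -1.26, adjusted p = 0.0643). In Ctrl it was at 8.57 to 10.8 CPM, so that vehicle was itself above Ctrl for Fabp1 (edgeR, log2 fold change 1.915, adjusted p = 0.018). Fabp2 was higher in every CORT library (log2 fold change 0.46, adjusted p = 0.0251). The part of these cells in the decrease of St3gal4 was not tested. The call was lost without vehicle 3, vehicle 5, CORT 2 or CORT 4 (adjusted p 0.0579, 0.1002, 0.0524 and 0.0799), and the log2 fold change stayed between -1.23 and -0.84 in all 6 fits with 1 library left out. Tested directly, the stress response exceeded the CORT response by 3.48 on the log2 scale (standard error 0.64, edgeR adjusted p = 0.0358), a call that was lost in 9 of the 12 fits with 1 library left out.

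St3gal4 lies on chromosome 9 as Fut4 does (35046579 to 35116810, minus strand, mm10), and shares exon bases with 4930581F22Rik on the opposite strand. That gene was at 0.543 to 3.30 CPM in all libraries, and no source used here says whether strand entered the counting. The promoter is set beside that of Fut4 because the genes moved apart under CORT. It is taken from RefSeq (GRCm38.p6), chr9:35116815-35117114, minus strand, 250 bases before to 50 after the start site, in lower case throughout since it holds none of the letters searched.
St3gal4 promoter: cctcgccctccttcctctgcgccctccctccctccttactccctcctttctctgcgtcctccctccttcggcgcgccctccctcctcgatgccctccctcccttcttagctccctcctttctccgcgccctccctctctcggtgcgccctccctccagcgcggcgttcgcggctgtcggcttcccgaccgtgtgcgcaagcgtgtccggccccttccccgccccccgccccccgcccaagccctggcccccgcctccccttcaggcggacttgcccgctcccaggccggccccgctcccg
Its GC content was 74.0%, at the 95.2 percentile of all promoters, beside the 87.4 percentile for Fut4. GENCODE M21 lists 9 transcripts of St3gal4 and places its outermost start at 35119268, upstream of this window. Nothing about the receptor follows from the absence of the letters in this window.

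The genes nearest to St3gal4 in pattern were Mep1b (root mean square difference 0.29), Apol10a (0.35) and Reg3a (0.38), where the spread of St3gal4 itself was 1.24. Mep1b encodes the beta subunit of meprin, a protease of the enterocyte brush border, and had means of 11.7 ± 2.94 (Ctrl), 49.0 ± 33.5 (stress), 8.80 ± 0.985 (vehicle) and 5.08 ± 1.59 (CORT) CPM (SD, n = 3). Reg3a, an antimicrobial lectin of the gut epithelium, was at 1.80 ± 0.186 CPM in Ctrl and 10.9 ± 6.97 CPM in stress. All 3 shared with St3gal4 both the wide spread among stress libraries and the lowest mean in CORT, which follows from choosing them by nearness over these libraries.

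**Figure D4:**
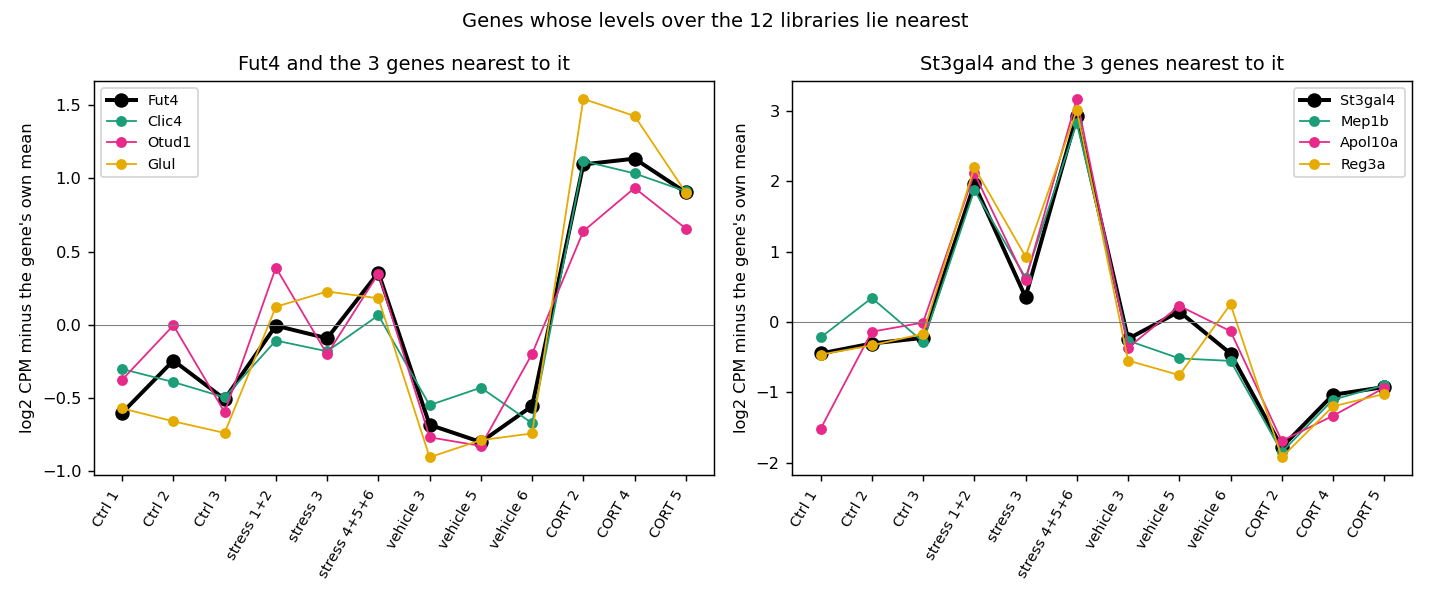
Fut4 (left) and St3gal4 (right), each in black, with the 3 genes whose levels lay nearest, as log2 CPM minus the gene's own mean (vertical axis) in the 12 libraries (horizontal axis). The Fut4 set peaks in the 3 CORT libraries, and the St3gal4 set peaks in stress 4+5+6 and is lowest in CORT 2.

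St3gal6 (chromosome 16, 58468125 to 58524243, minus strand), which like St3gal4 sialylates lactosamine chains, moved the other way in CORT vs. vehicle. In stress vs. Ctrl it lay in the same direction as St3gal4, by much less and without a call. St3gal6 was at 49.2, 51.1 and 58.4 CPM in vehicle 3, 5 and 6 and at 64.3, 75.01 and 66.5 CPM in CORT 2, 4 and 5. The CORT libraries were all higher, and the rise was 1.28-fold (log2 fold change 0.35, standard error 0.09, adjusted p = 0.0486), lost in 5 of the 6 fits with 1 library left out (all but that without vehicle 6). In stress it was at 69.8, 68.4 and 66.03 CPM against 58.7 to 62.6 CPM in Ctrl, with no overlap and a log2 fold change of 0.16 (standard error 0.08, adjusted p = 0.407). St3gal6 shares exon bases with Dcbld2 on the opposite strand, which was at 0.181 to 1.85 CPM.

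St3gal1 (chromosome 15, 67102875 to 67113992, minus strand), which sialylates short O-linked chains of mucin type, was at 4.79, 5.32 and 3.46 CPM in vehicle 3, 5 and 6 and at 5.65, 7.40 and 8.47 CPM in CORT 2, 4 and 5. The groups did not overlap, and the log2 fold change of 0.65 (standard error 0.25) did not pass (adjusted p = 0.155). In stress the libraries were at 4.94 to 7.85 CPM, within the Ctrl range of 5.18 to 8.78 CPM except for the lowest. St6gal1 (chromosome 16, 23224740 to 23360350, plus strand), which joins sialic acid to N-linked lactosamine in the other common linkage, was at 3.90, 2.83 and 4.99 CPM in vehicle and 1.12, 3.35 and 1.28 CPM in CORT. CORT 4 lay within the vehicle range and the others below it, and the log2 fold change was -1.05 (standard error 0.45, adjusted p = 0.198). Without CORT 4 it was -1.73 (adjusted p = 0.0509). With 37 to 195 counts in these libraries, the spread of St6gal1 in CORT came to 64.8% of its mean. BC106179, which shares exon bases with St6gal1 on the opposite strand, was at 0 to 0.131 CPM.

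B4galt1 (chromosome 4, 40804602 to 40854005, minus strand) is a galactosyltransferase that builds lactosamine, on which some of the other enzymes act, but not Fut8 or St3gal1. B4galt1 showed the smallest log2 fold changes of the 8 genes in both CORT vs. vehicle and stress vs. Ctrl. It was at 85.7, 72.1 and 79.9 CPM in vehicle 3, 5 and 6 and at 69.6, 72.5 and 68.4 CPM in CORT 2, 4 and 5. The groups overlapped through vehicle 5 and CORT 4. The log2 fold change was -0.20 (standard error 0.08, adjusted p = 0.185) under CORT and 0.03 (standard error 0.09, adjusted p = 0.924) in stress, where levels of 64.3 to 74.8 CPM spanned the Ctrl range of 65.7 to 73.6 CPM.

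Vehicle and Ctrl, the control groups of the comparisons above, differ by the injection and by the hours without food and water stated for Ctrl, which cannot be told apart here. None of the 8 passed (edgeR, 0 of 8), beside 0.799% of the 13642 genes tested. At an unadjusted p below 0.05 there was 1, Fut2, and DESeq2 called 0. Its counts were 6, 13 and 11 in Ctrl and 13, 18 and 115 in vehicle, and no fold is given because Ctrl averaged below the counting limit. The vehicle libraries lay below the Ctrl libraries without overlap for St3gal6 (49.2 to 58.4 vs. 58.7 to 62.6 CPM), as for 7.65% of all genes, and overlapped them for the other 7. Side by side, Fut4 had log2 fold changes of -0.23, 0.55 and 1.70 in vehicle vs. Ctrl, stress vs. Ctrl and CORT vs. vehicle, and St3gal4 had 0.16, 2.42 and -1.06.

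Around these enzymes, 77 further genes of the same pathway were examined, of which 54 were expressed highly enough to be tested in CORT vs. vehicle and 53 in stress vs. Ctrl. In CORT, 2 rose and 5 fell (edgeR), beside 3.64% higher and 4.5% lower over all genes, and the median log2 fold change was -0.08, beside 0.01 over all genes. No other fucosyltransferase (5 of 7 tested) or sialyltransferase (3 of 16 tested) and no gene of GDP-fucose supply (6 of 6 tested) passed with edgeR (0, 1 and 3 at an unadjusted p below 0.05). DESeq2 called 1 of these sialyltransferases, St3gal3 (log2 fold change 0.41, adjusted p = 0.0300), and 1 gene of GDP-fucose supply, the transporter Slc35c1 (-0.33, adjusted p = 0.0128). The increases were in enzymes that extend chains with N-acetylglucosamine. B3gnt3, which extends O-linked chains, was at 138.8, 147.9 and 159.5 CPM in the vehicle libraries in rising order and at 295.1, 309.1 and 311.9 CPM in the CORT libraries. The CORT libraries were all about as high as each other and clear of vehicle, with a log2 fold change of 1.02 (standard error 0.07, adjusted p = 0.000148). B3gnt8, which extends lactosamine repeats, was at 3.66 ± 1.75 CPM in vehicle and 17.4 ± 2.74 CPM in CORT (SD, n = 3), a log2 fold change of 2.21 (adjusted p = 0.00467). It passed in 13 of 14 alternatives, and not with all 12 libraries in 1 fit (adjusted p = 0.0549).

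The 5 decreases under CORT were small. B4galt5 (log2 fold change -0.72, adjusted p = 0.0236) and B4galt6 (-0.40, adjusted p = 0.0234) start lactosylceramide lipids, and B4galt3 (-0.33, adjusted p = 0.0272) is a relative of B4galt1. Cmas, which activates sialic acid for transfer, was at 169 ± 10.4 CPM in vehicle and 136 ± 11.45 CPM in CORT (log2 fold change -0.34, adjusted p = 0.0377). The lysosomal sialidase Neu1 had a log2 fold change of -0.60 (adjusted p = 0.0215). Each of these 5 calls was lost in at least 4 of the 6 fits that left out 1 library. Among the 5 tested genes of CMP-sialic acid supply, 3 had positive and 2 negative log2 fold changes. DESeq2 also called Gne of this list higher (0.29, adjusted p = 0.0229), which did not pass with edgeR (adjusted p = 0.0621). It called Mgat2, a chain-building transferase, lower (-0.36, adjusted p = 0.0142). In stress vs. Ctrl, B3gnt3 alone of the 53 tested passed with edgeR (beside 1.3% higher over all genes), while DESeq2 also called Gcnt4. B3gnt3 had a log2 fold change of 0.80 (adjusted p = 0.00208) from 114 ± 5.55 CPM in Ctrl to 199 ± 14.6 CPM after restraint. It passed in all 6 fits with 1 library left out. For B3gnt3, vehicle was itself above Ctrl (138.8 to 159.5 vs. 108.5 to 119.6 CPM, log2 fold change 0.38). That difference did not pass with edgeR (adjusted p = 0.0666) but did with DESeq2 (adjusted p = 0.00429). None of the 54 tested passed in the difference between the responses (edgeR, 14 at an unadjusted p below 0.05, and 4 called by DESeq2).

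**Figure D5:**
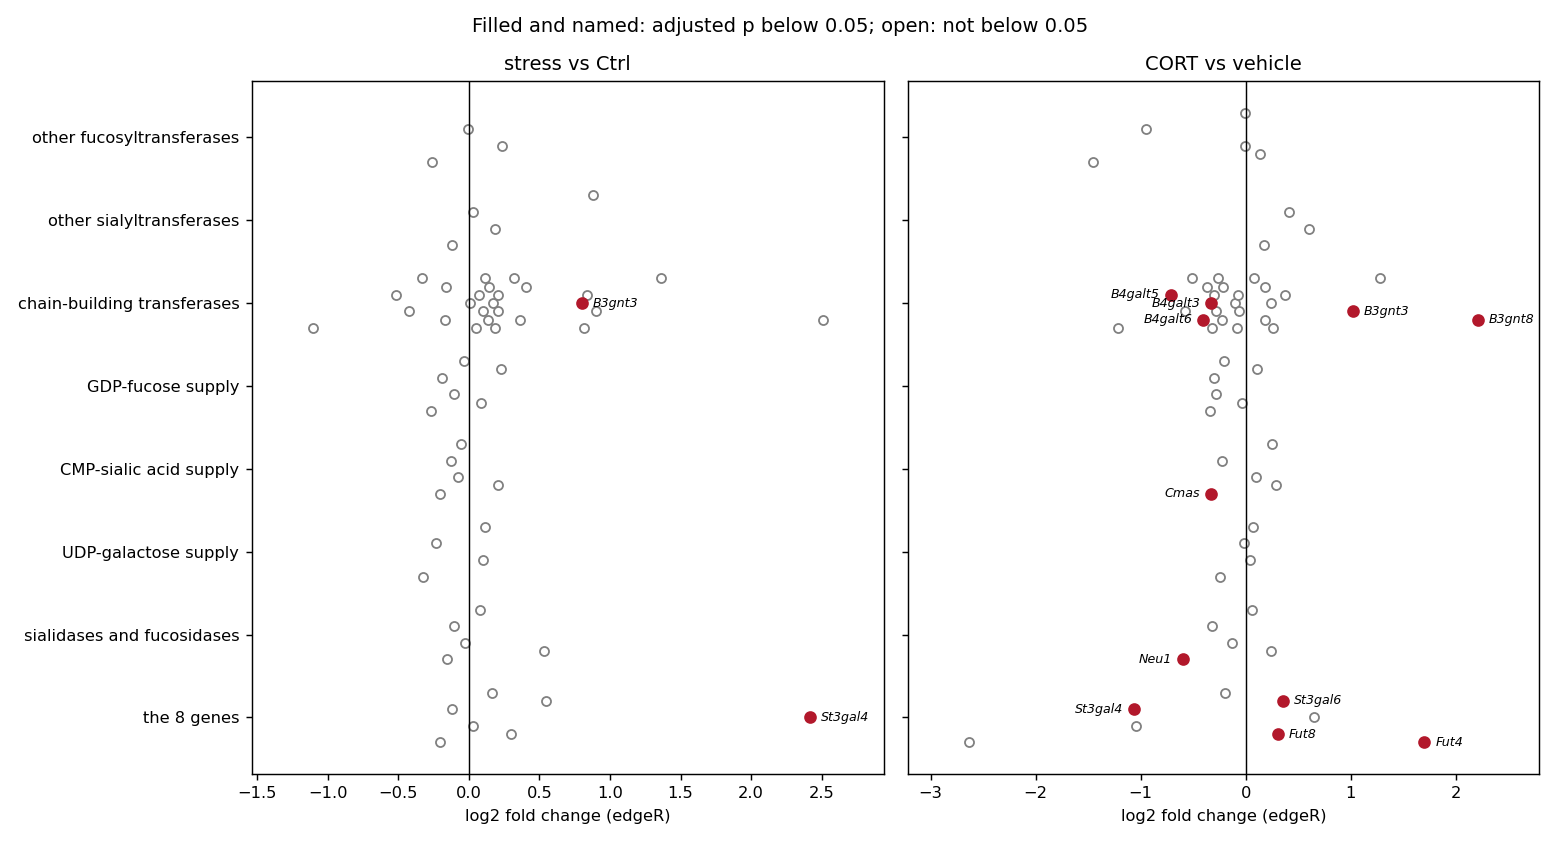
The log2 fold change (horizontal axis, edgeR) of the tested genes of 7 pathway lists and of the 8 genes (rows, with points staggered for legibility) in stress vs. Ctrl and CORT vs. vehicle. Filled, named points have an adjusted p below 0.05 and open points do not, and Fut2 is left out of stress vs. Ctrl. B3gnt3 is filled in both panels, at 0.80 and 1.02, and no other fucosyl- or sialyltransferase is filled.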

How the data were processed

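RNA was measured in 12 libraries of sorted ISCs. Per the labels, the submitters' processing notes name HISAT2 2.2.1, StringTie 2.2.1 and mm10, while the study's methods name HISAT2 2.0.5, featureCounts 1.5.0-p3 and DESeq2 1.20.0. The authors deposited estimated counts per gene, and these were whole numbers equal to coverage times length divided by 75 bases within 1 count (4896 of 4896 values in 408 single-exon genes). The authors also deposited FPKM and TPM, scaled for depth and length, and coverage, a signal per base that is not scaled. FPKM served for levels between genes and for alternatives, coverage for the unit of the counts, and TPM was not used. No column was left without a sample (0 columns).

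Estimated counts were tested with edgeR 4.0.16 in R 4.3.3 (quasi-likelihood F-test, TMM, filterByExpr, Benjamini-Hochberg over all genes) on the 6 libraries of a comparison, and the difference between responses on all 12. A gene was called at an adjusted p below 0.05. CPM used TMM factors over the 12 libraries. The scripts were tested on simulated counts. Alternatives were DESeq2 1.42.0, its size factors, other filters on low counts, limma 3.58.1 on log2(FPKM + 1) or log2(FPKM + 0.1), all libraries in 1 fit, and leaving out each library. Intervals and limits for 0 counts cover counting error only.

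The 8 genes and the lists (7 of pathway genes, 8 of cell type markers) were chosen with earlier results of these data known. All 8 genes are named, as are pathway genes past an adjusted p of 0.05 and, for each of the 8 changed over 2-fold with an adjusted p below 0.05, the 3 genes nearest in pattern. Of the pathway genes, 1 is not reported here and is left out of the counts. Of the gene identifiers, 47224 were in GENCODE M21 (GRCm38). Whether strand was used in counting is not given in the sources used here, so a gene and its antisense partner may not be separated.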

Additional observations from a re-analysis of the deposited data

Results flagged for a closer look

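The responses to stress and to CORT differed for 2 of the 8 genes when the difference was tested over the 12 libraries (edgeR), beside 0.388% of all genes. For Fut4 the stress response minus the CORT response was -1.16 on the log2 scale (standard error 0.18, adjusted p = 0.0153), with all 3 treated libraries above all 3 control libraries in each. For St3gal4 it was 3.48 (standard error 0.64, adjusted p = 0.0358), with all 3 stress libraries above Ctrl and all 3 CORT libraries below vehicle. The summed enterocyte markers were 1.69-fold to 8.83-fold of the Ctrl mean in the stress libraries and 0.671-fold to 1.02-fold in the CORT libraries, and their part in the St3gal4 value was not tested. With 1 library left out, the St3gal4 call was lost in 9 of 12 fits and the Fut4 call in 3 of 12, and both were lost in the 3 FPKM settings.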

How the results depend on the processing

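Each comparison has 3 libraries a side, the stress libraries pool different numbers of mice, and Fut2 and St6gal1 rest on few counts, so calls near the threshold depend on single libraries. Fut4 in CORT vs. vehicle passed in all 14 alternatives (log2 fold change 1.504 to 1.762, adjusted p 5.19e-47 to 0.00908). The number of the 8 genes called in CORT vs. vehicle was 4, and became 5 with DESeq2, with no filter and with at least 10 counts in every library, 3 with all 12 libraries in 1 fit, 2 with log2(FPKM + 1) or log2(FPKM + 0.1), 1 with log2(FPKM + 1) and no filter, and 1 to 3 with 1 library left out. In stress vs. Ctrl it was 1, and became 2 with DESeq2, 3 with all 12 libraries in 1 fit, 0 with no filter on counts and in each of the 3 FPKM settings, and 0 to 2 with 1 library left out. For the difference between responses it was 2, 0 in the 3 FPKM settings, and 0 to 2 with 1 library left out. In vehicle vs. Ctrl it was 0 in every setting run.

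Small changes that were not called changed sign in some settings. In stress vs. Ctrl with 1 library left out, B4galt1 ranged from -0.019 without stress 3 to 0.089 without stress 4+5+6 (0.081 without Ctrl 1), St3gal1 from -0.33 without stress 4+5+6 to 0.13 without Ctrl 3 (-0.27 without Ctrl 2 and 0.020 without stress 1+2) and St6gal1 from -0.57 without stress 4+5+6 to 0.035 without stress 3 (-0.32 without Ctrl 2). In vehicle vs. Ctrl, Fut8 was -8.60e-05 with all 12 libraries in 1 fit and -0.019 to 0.047 with 1 library left out, and St3gal4 was -0.024 to 0.30 with 1 left out. In the difference between responses, Fut8 was 6.79e-05 with DESeq2, 0.00269 with its size factors in edgeR, 0.081 with log2(FPKM + 1) with or without a filter, 0.083 with log2(FPKM + 0.1) and -0.062 to 0.033 with 1 library left out (0.015 without stress 1+2). The causes were not tested. The fitted difference between responses for Fut2 was -4.44 without stress 3, which leaves stress libraries at 0 counts only, and 0.69 to 2.32 without any other single library (2.09 without vehicle 3). Since Ctrl and stress are at the counting limit, these values depend on the prior count and are no fold or bound.

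Over all genes the number called was 1192 in CORT vs. vehicle (503 to 1788 in the alternatives), 260 in stress vs. Ctrl (27 to 849), 109 in vehicle vs. Ctrl (0 to 299) and 56 in the difference between responses (12 to 393). Of the pathway genes, 7 were called in CORT vs. vehicle (3 to 11 in the alternatives), and of the enterocyte markers 5 in stress vs. Ctrl (0 to 6). B3gnt3 passed in 14 of 14 alternatives in CORT vs. vehicle and in 13 of 14 in stress vs. Ctrl. No paired analysis was possible because the groups compared share only 1 single number (3 in stress and Ctrl, 5 in CORT and vehicle), and the pooled stress libraries match no single Ctrl library.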

Other observations

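Among all genes of the count table, ordered by mean FPKM, Fut4 moved from place 6978 in Ctrl to 5598 in stress, and from 7550 in vehicle to 3336 in CORT. St3gal4 stood at place 7080 in Ctrl and 1660 in stress, and at 6664 in vehicle and 9053 in CORT. Fut8 stayed between places 2527 and 3228 in the 4 groups, and B4galt1 between 4284 and 4724. The spread of St3gal4 among the stress libraries was 74.9% of its mean, against 7.71% in Ctrl, while that of Fut8 was 2.40% to 5.98% in the 4 groups.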
